A study of Mus musculus with 2 samples.

Results

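Within the sorted GR1+ cells of 4T1 mammary tumors, 389 of 1946 neutrophils carried the highest share of transcripts from Ccdc126, Ciart, Mreg, Dedd2, Rragd, Plcxd2, Ero1l and Zfp292, and they are referred to here as the members. They were selected on measured values. Among the 5187 retained cells, neutrophils were those with S100a8 and S100a9 at no less than 1.5% of their unique molecular identifiers (UMIs, each standing for 1 captured transcript), with C1qa, C1qb, C1qc and Apoe under 0.5%, Camp, Ngp and Ltf under 1%, and Il1a, Tnf and Il23a under 0.5%. These neutrophils were ranked, both libraries together, by the summed share of the 8 genes, and the top 20% were taken. The other 1557 neutrophils (the remaining neutrophils) served as the comparison. The 8 genes came from an earlier clustering of these same cells, so the comparison of members with the remaining neutrophils is a description throughout and was given no test.

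The study profiled 2 single-cell libraries, 1 per condition, each a pool of 5 BALB/c mice of 6 to 8 weeks according to the sample labels; the study's text gives another pool size and another age. The 4T1P library came from tumors of the parental 4T1 mammary carcinoma line, which does not respond to anti-PD1 antibody, and the 4T1M library from tumors of a mutagenized clone of that line, which does respond. Tumors were taken without treatment, and cells were enriched on magnetic beads for GR1, an epitope of the Ly6G and Ly6C surface proteins. With 1 library per condition and 1 clone per model, the tumor line, the pool of mice and the library cannot be told apart, and every interval below is a 95% interval that covers counting error alone.

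Neutrophils are short-lived myeloid cells that leave the bone marrow carrying granule proteins and the chemokine receptor CXCR2, and they can live longer and change their transcripts inside tumors. They depend largely on glycolysis for energy. Where oxygen is short, hypoxia-inducible factors are stabilised and raise glucose transporters, glycolytic enzymes, mitophagy receptors and the endoplasmic reticulum (ER) oxidase encoded by Ero1l. Ciart encodes a repressor of the CLOCK-BMAL1 pair of the circadian clock, Rragd one of the Rag GTPases that recruit mTORC1 to lysosomes when amino acids are plentiful, Mreg (melanoregulin) a cargo-sorting factor of lysosome-related organelles, Dedd2 a nuclear protein with a death-effector domain, and Zfp292 a zinc finger transcription factor.

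Of the 8 ranking genes, 3 carry the palindrome CACGTG within the 250 bases before their RefSeq start, and these stretches are shown because this E-box, a site for basic helix-loop-helix factors, also contains the letters ACGTG, one form of the core bound by hypoxia-inducible factors. Capitals mark the CACGTG nearest to the start among those that lie before the gene in both RefSeq and GENCODE, and each stretch (build GRCm38.p6) ends before the first base of the gene in both.
Ciart, chr3:95882252-95882302, minus strand: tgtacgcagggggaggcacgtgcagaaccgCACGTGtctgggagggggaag
Ccdc126, chr6:49319178-49319243, plus strand: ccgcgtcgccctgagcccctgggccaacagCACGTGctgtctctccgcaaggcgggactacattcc
Zfp292, chr4:34882961-34883023, minus strand: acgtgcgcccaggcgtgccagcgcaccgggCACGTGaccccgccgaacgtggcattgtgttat
The window of Ciart held 3 such sites, that of Zfp292 2, of which the one nearer to the RefSeq start reaches into the gene as GENCODE annotates it, and that of Ccdc126 1. Ero1l, listed by RefSeq as Ero1a, held ACGTG but not CACGTG, and Rragd held neither of these nor GCGTG, the other form of that core. Both strands were searched, and every CACGTG also counts as the shorter motif. Of the same 250 bases of all 32851 RefSeq entries, 6.02% held CACGTG, 16.6% ACGTG and 28.2% GCGTG. By gene, CACGTG occurred in 45 of the 244 genes with a window among those at least 1.5-fold higher in the members of both libraries (18.4%), in 8 of 156 among those at least 1.5-fold lower (5.13%), and in 150 of 1180 among all genes compared (12.7%). For ACGTG the corresponding shares were 42.2%, 17.3% and 30.4%, and for GCGTG 63.1%, 43.6% and 53.1%. A match of letters is a description of the window, not evidence of binding.

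In 4T1P, 113 of 568 ranked cells (19.9%) were members, with an exact interval of 16.7 to 23.4%, and in 4T1M 276 of 1378 (20.03%, 17.9 to 22.2%). The pooled ranking therefore took the same share from both libraries, within counting error. The ranking had no gap at its threshold. The last 3 cells inside had 9 of 2148, 4 of 955 and 7 of 1673 UMIs from the 8 genes, each 0.42% after rounding, and the first 3 outside had 11 of 2634, 26 of 6238 and 6 of 1441, also 0.42%. Members are thus the upper 20% of a ranked score. A cut at a fixed share of ranked cells cannot show whether members are a separate cell type, and this was not tested. Ero1l supplied 59.2% of the members' score UMIs, 4 members had no Ero1l UMI, and 343 (88.2%) had UMIs from at least 3 of the 8 genes. In 64 members (16.5%) the score rested on fewer than 10 UMIs. When each cell's UMIs were split at random into 2 parts and ranked on 1 of them, 323 members (83.0%) were again in the top 20%. Of the 5 barcodes that occur in both libraries, 4 were neutrophils of either library and 1 was a member.

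Members held fewer UMIs per cell than the remaining neutrophils, with medians of 2568 and 3119 in 4T1P and 2346 and 2986 in 4T1M. The median number of genes was 867 against 957 and 780 against 929. The mitochondrial share had a median of 3.06% against 2.78% in 4T1P and 1.84% against 1.86% in 4T1M, and the ribosomal protein share 2.68% against 2.37% and 2.48% against 2.18%. Shallower cells were therefore over-represented among the members, while the mitochondrial share differed little. Of the cells with the highest Scrublet doublet scores, none of the 113 4T1P members and 3 of the 276 4T1M members (1.09%) were among them, against 10 (2.20%) and 38 (3.45%) of the remaining neutrophils. No cell was removed as a doublet.

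**Figure D1:**
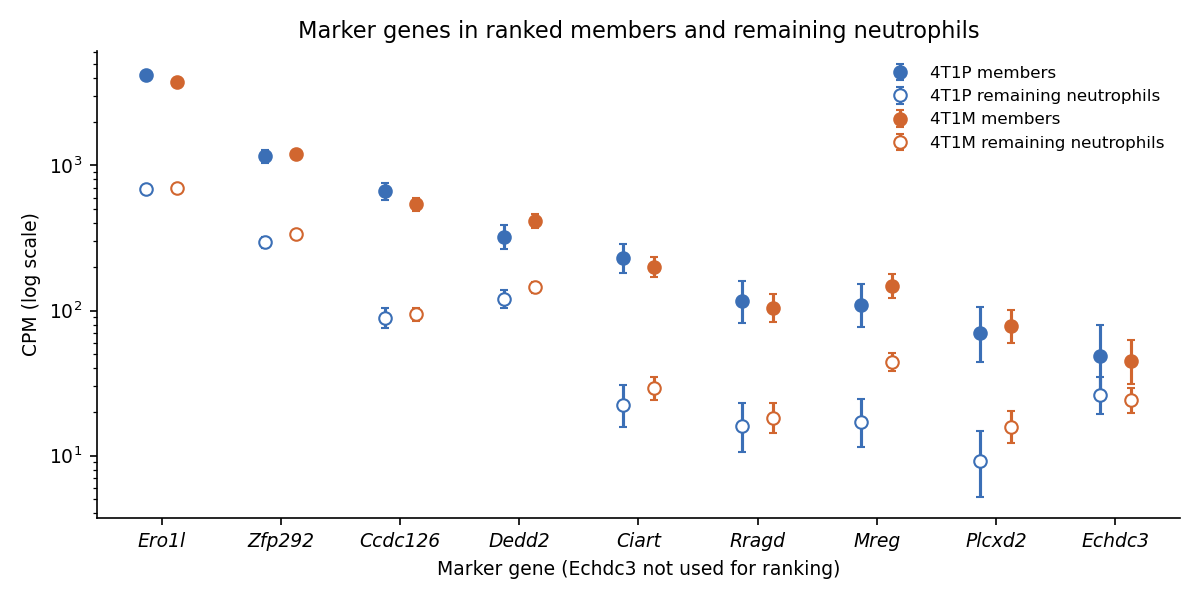
Counts per 1000000 UMIs (CPM, log axis) of the 9 marker genes in the summed members (filled) and the summed remaining neutrophils (open) of 4T1P (blue) and 4T1M (orange), with exact Poisson 95% intervals. The 8 ranking genes stand apart between filled and open points in both libraries because they chose the members, and the points of Echdc3, which was not used, lie closer together.

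Values of the ranking genes describe the choice and support nothing. Summed over cells, Ero1l stood at 4174 CPM in members and 691 in the remaining neutrophils of 4T1P, and at 3775 and 697 in 4T1M. Ccdc126 had 665 and 89.1 CPM in 4T1P and 538 and 94.1 in 4T1M, and Ciart 229 and 22.3, then 201 and 29.4. Mreg had 110 and 17.1 CPM in 4T1P and 148 and 44.3 in 4T1M, so its remaining neutrophils were further apart between the libraries than its members. Zfp292 had 1153 and 296 CPM, then 1204 and 337, and Dedd2 323 and 121, then 415 and 144. Rragd had 116 and 16.0 CPM in 4T1P and 104 and 18.3 in 4T1M, and Plcxd2, a phospholipase C with an X domain only, 70.2 and 9.14, then 78.5 and 15.9. Within each library the Poisson intervals of members and remaining neutrophils did not overlap for any of these 8 genes.

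The UMIs were also split so that ranking and values came from different UMIs of each cell. With members ranked on 1 part and measured on the other, the log2 ratio of members over remaining neutrophils for Ero1l was 2.16 (1.998 to 2.319) in 4T1P and 2.14 (2.04 to 2.25) in 4T1M, where the full data gave 2.59 and 2.44, all without UMIs added to the sums. For Ccdc126 it was 2.63 and 2.13 against 2.90 and 2.52, and for Ciart 3.48 and 2.14 against 3.36 and 2.77. For Mreg it was 2.05 and 0.97 against 2.68 and 1.74. Of the 8 genes, all but Plcxd2 kept intervals above 0 in both libraries. Plcxd2 in 4T1P had 1.39 (-0.16 to 2.80) and rested on 7 UMIs in members. As the 8 genes had been picked from a clustering of these same cells, all UMIs included, this too is a description and supports nothing. Echdc3, the ninth marker, which encodes an enoyl-CoA hydratase domain protein and stood outside the score, had 48.8 CPM in members and 26.3 in the remaining neutrophils of 4T1P (log2 ratio 0.92, -0.03 to 1.74) and 45.1 and 24.1 in 4T1M (0.92, 0.31 to 1.47). It rested on 16 and 35 member UMIs, and in 4T1P its interval included 0.

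Detection per cell was compared after each cell was thinned to 1000 UMIs, with macrophages of the same libraries as a guide to free RNA. The macrophages' own transcripts were not separated from free RNA. Ccdc126 was detected in 46.9% of 4T1P members, 7.91% of the remaining neutrophils and 0.81% of macrophages, and in 38.3%, 10.2% and 1.51% in 4T1M. Ciart was detected in 15.9%, 2.20% and 0.16% in 4T1P and in 16.4%, 2.64% and 0.96% in 4T1M. For Ero1l the shares were 98.2%, 38.5% and 13.6%, then 95.6%, 41.3% and 13.97%. For all 8 ranking genes the remaining neutrophils stood between members and macrophages, with intervals that overlapped those of macrophages for Ciart in 4T1M and for Rragd and Plcxd2 in 4T1P, and those of members for Mreg in 4T1P. Without thinning, Ccdc126 was detected in 69.9% of 4T1P members, 21.5% of the remaining neutrophils and 5.67% of macrophages, whose median depth of 9305 UMIs was far above that of neutrophils. Echdc3 was detected in 6.19% of 4T1P members and 4.396% of the remaining neutrophils, and in 4.38% and 2.09% in 4T1M, with overlapping intervals in both libraries.

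Compared across the whole set of neutrophils, 305 of 1491 genes (20.5%) were at least 1.5-fold higher in members in both libraries and 198 (13.3%) were at least 1.5-fold lower in both. The genes compared had 100 CPM or more in any of the 4 sums of cells and at least 10 UMIs per library, and the 8 ranking genes were left out. A gene could thus enter through the very sum in which it was high, and 137 of the 305 genes reached the minimum only in members and 100 of the 198 only in the remaining neutrophils. With the minimum set over all ranked neutrophils together, an alternative chosen after seeing the data, 185 of 1166 genes (15.9%) were higher and 167 (14.3%) lower. Without a CPM minimum 753 were higher and 1120 lower, so the balance of higher and lower genes turned with the minimum. The median log2 ratio over all genes was 0.10 in 4T1P and 0.10 in 4T1M. As the members were chosen with results of these cells known, the shares of 20.5% and 13.3% are the background against which each gene list is given, and the lists carry no test.

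**Figure D2:**
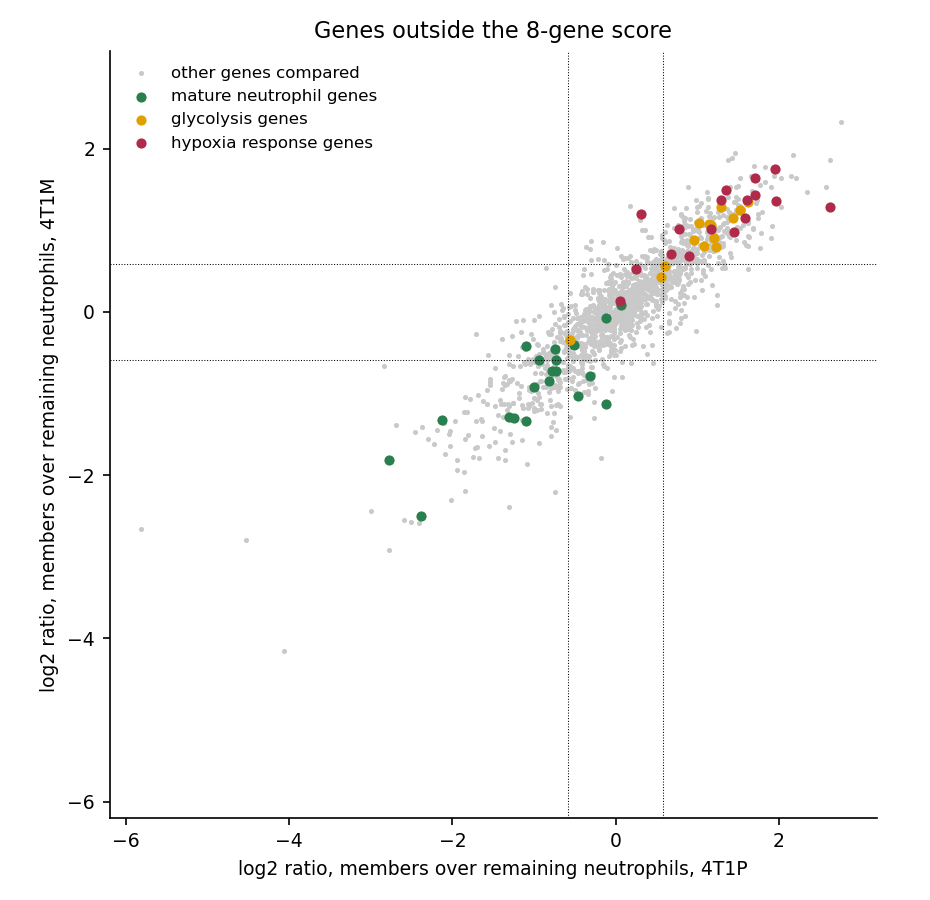
Each point is 1 of the 1491 genes compared, with its log2 ratio of members over remaining neutrophils in 4T1P (x axis) and 4T1M (y axis), and the dotted lines mark 1.5-fold. Hypoxia response (red) and glycolysis genes (yellow) lie mostly in the upper right, and mature neutrophil genes (green) mostly in the lower left.

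Hypoxia response genes had the highest median ratio of the lists compared. Of 17 genes compared (21 listed outside the score), 14 were 1.5-fold higher in both libraries, none was lower, and all 17 had ratios above 0 in both, with a median log2 ratio of 1.36 in 4T1P and 1.20 in 4T1M. Their summed level was 13620 CPM in members and 5201 in the remaining neutrophils of 4T1P, and 11929 and 5467 in 4T1M. Hilpda, which encodes a lipid droplet protein that inhibits lipolysis, supplied 29.5% of it in the members. Hilpda had 4512 CPM in members and 1156 in the remaining neutrophils of 4T1P, and 3315 and 1297 in 4T1M. Higd1a, a mitochondrial protein gene of the hypoxia response, had 1449 and 375 CPM (log2 ratio 1.95, 1.78 to 2.12), then 1224 and 364 (1.75, 1.63 to 1.87). Both genes were higher in the members of either library than in the remaining neutrophils of either library. Bnip3 and Bnip3l, which encode mitophagy receptors, had log2 ratios of 1.71 and 1.46 in 4T1P and 1.44 and 0.98 in 4T1M. P4ha1, a collagen prolyl hydroxylase gene, had 1.70 and 1.64, and Vegfa, the angiogenic growth factor gene, 1.29 and 1.37. Egln1 and Egln3, which encode the prolyl hydroxylases that mark hypoxia-inducible factors for degradation, had 1.36 and 0.78 in 4T1P and 1.49 and 1.02 in 4T1M. Slc2a1 and Slc2a3, the glucose transporter genes, had 1.17 and 0.90, then 1.01 and 0.69. Ankrd37 had 198 CPM in members against 32.0 in 4T1P but 115 against 47.2 in 4T1M, log2 ratios of 2.63 (2.09 to 3.17) and 1.29 (0.90 to 1.65). Adm, the adrenomedullin gene, was under the minimum, with 79.3 CPM in members against 2.86 in 4T1P and 57.9 against 3.37 in 4T1M, log2 ratios of 4.69 (3.39 to 6.53) and 4.07 (3.21 to 5.08) on 26 and 45 member UMIs. The genes compared that were short of 1.5-fold in at least 1 library were Hif1a itself, with ratios of 0.06 and 0.13, Bhlhe40 with 0.25 and 0.52, and Ddit4 with 0.31 and 1.20.

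Ero1l is itself a hypoxia-inducible gene and supplied most of the score, so the ranking was repeated with Ero1l left out. Over all 1511 genes then compared, 308 (20.4%) were 1.5-fold higher in both libraries and 188 (12.4%) lower, of which 246 and 149 had also been so with Ero1l. Of 17 hypoxia response genes 13 were higher, 12 of them also higher with Ero1l in the score, with medians of 1.03 and 1.05, and Ero1l, no longer used for the choice, had log2 ratios of 1.80 and 1.46. Cells high in the other 7 genes were also high in Ero1l and in the hypoxia response genes. As Ero1l was picked together with the other 7 from a clustering of these same cells, its ratios are a description and support nothing.

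Glycolysis genes followed the same direction. Of 14 compared (17 listed), 11 were 1.5-fold higher in both libraries and none was lower, with medians of 1.15 and 0.98, and the summed level was 15704 CPM in members against 7921 in 4T1P and 13811 against 7516 in 4T1M. Ldha, which encodes the lactate-forming subunit of lactate dehydrogenase and was the most abundant of them, had 2621 CPM in members and 1073 in the remaining neutrophils of 4T1P, and 2537 and 1045 in 4T1M. Hk2, the hexokinase gene at the entry of the pathway, had log2 ratios of 1.62 (1.23 to 2.002) and 1.35 (1.11 to 1.58), and Tpi1, Pfkl and Gapdh 1.52, 1.44 and 1.23 in 4T1P and 1.25, 1.15 and 0.80 in 4T1M. Pgk1 and Pkm were short of 1.5-fold in at least 1 library, at 0.56 and 0.60 in 4T1P and 0.43 and 0.57 in 4T1M. The lactate exporter gene Slc16a3 went the other way, at -0.56 (-0.81 to -0.33) and -0.34 (-0.51 to -0.18). Bsg, which encodes basigin, the chaperone that carries lactate exporters to the membrane, was nevertheless among the 15 genes highest in members, with 1721 CPM against 450 in 4T1P and 1366 against 429 in 4T1M.

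**Figure D3:**
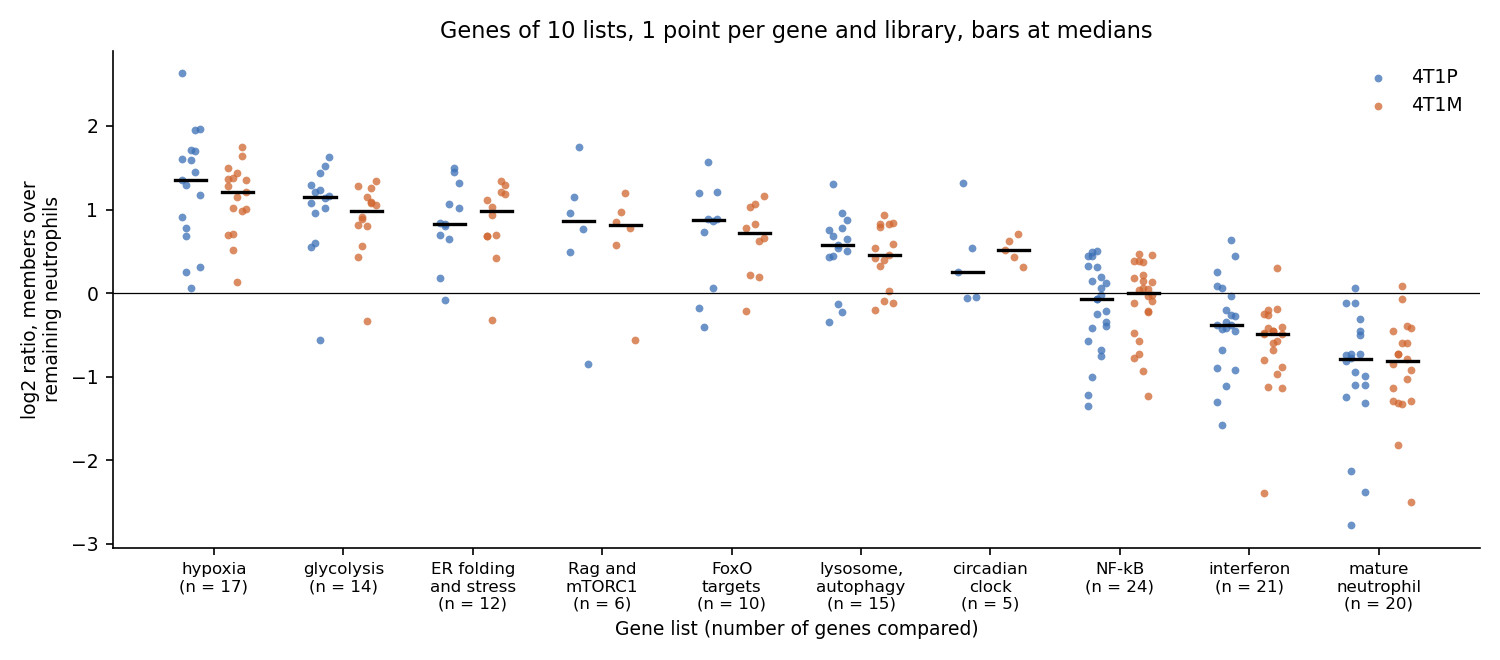
Log2 ratios of members over remaining neutrophils for the genes of 10 lists, 1 point per gene in 4T1P (blue) and 4T1M (orange), with black bars at the medians. The medians run from 1.36 and 1.20 for hypoxia response genes to -0.79 and -0.82 for mature neutrophil genes.

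Other lists were drawn up around the ranking genes themselves. Among ER folding and stress genes, 9 of 12 compared were higher and none lower, with medians of 0.83 and 0.98. P4hb, which encodes the protein disulfide isomerase that the product of Ero1l reoxidises, had 1657 CPM in members against 666 in 4T1P and 1565 against 688 in 4T1M. Hspa5, the ER chaperone BiP, had 1849 against 885 CPM, then 1703 against 1052, and Ddit3, the stress-induced factor CHOP, had log2 ratios of 1.02 and 1.29. Xbp1 stood at -0.09 and -0.32. Without Ero1l in the score, 6 of 11 ER genes were 1.5-fold higher in both libraries, and all 6 were among the 9. In the list of Rag GTPase and mTORC1 genes only 6 of 25 could be compared, of which 4 were higher, namely Fnip2 (1.74 and 1.20), Fnip1 (1.15 and 0.97), Flcn (0.96 and 0.85) and Lamtor1 (0.77 and 0.78). Flcn and Fnip1 or Fnip2 form the folliculin complex, which activates the RagC and RagD proteins. Rragc had 0.49 and 0.57, and Rheb, the GTPase that activates mTORC1 directly, -0.85 and -0.56. Of those under the minimum, Lamtor2 had -1.41 (-3.00 to -0.34) and -1.30 (-2.24 to -0.56) and Lamtor4 -1.90 and -1.40, and both encode subunits of the Ragulator complex, as Lamtor1 does. For FoxO targets and quiescence genes 7 of 10 were higher and none lower, with medians of 0.87 and 0.72. They included Ccng2 (1.57 and 1.07), Foxo3 (1.21 and 1.17), Cdkn1b (0.86 and 0.63) and Klf2 (0.73 and 1.02). This count depended on the ranking: with cells thinned to 1000 UMIs before ranking, 2 of 9 (22.2%) were higher, near the 17.4% of all genes then compared.

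Circadian clock genes were sparse in these cells. Only 5 of 22 passed the minimum, and Arntl, Npas2, Tef and Hlf had no UMI in any member. Csnk1e, a clock kinase gene, was 1.5-fold higher in both libraries (1.32 and 0.63) but not with split UMIs, thinned cells or a mitochondrial limit of 5%, while Nfil3 had 0.54 and 0.71 and Per1 -0.04 and 0.31. The other 17 clock genes did not reach the minimum. Of the lysosome and autophagy genes 4 of 15 were higher (Ctsb, Ctsz, Lamp1 and Atp6v1a), with medians of 0.57 and 0.45. That share of 26.7% was near the 20.5% of all genes compared. In the list of death receptors and Bcl2 family genes 3 of 10 were higher (30%, beside the same 20.5%), namely Gadd45b (1.31 and 1.07), Bax (1.52 and 1.02) and Pmaip1 (0.92 and 1.05). Mcl1, the survival gene that was the most abundant of that list, had 4101 CPM in members against 3624 in 4T1P and 4157 against 3824 in 4T1M. With the minimum set over all ranked neutrophils together, 1 of 7 genes of that list was higher (14.3%, beside 15.9% of all genes). Of the fatty acid and lipid droplet genes 2 of 4 were higher, the droplet coat gene Plin2 (1.26 and 1.01) and the fatty acid binding protein gene Fabp5 (1.04 and 0.81). Of the melanosome and vesicle transport genes 2 of 4 were higher, Dtnbp1 (1.91 and 0.90) and Lyst (0.73 and 0.64), but none of 3 with the top 30% of neutrophils and 1 of 4 with thinned cells.

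The 15 genes with the highest mean ratio outside the score, among those that reached the minimum, are given next. Apart from Osbpl8 and, given above, Higd1a and Bsg, they reached 100 CPM only in members, the cells in which they were high. Their place in this ranking thus depended in part on the minimum. Stard4, a sterol carrier gene, had 143 CPM in members and 21.1 in the remaining neutrophils of 4T1P, and 78.5 and 15.6 in 4T1M, log2 ratios of 2.76 (2.11 to 3.42) and 2.33 (1.80 to 2.85). Nceh1, a cholesteryl ester hydrolase gene, had 223 and 36.0 CPM, then 218 and 59.9, and Osbpl8, an ER lipid transfer protein gene, 519 and 160, then 413 and 120. Dgkz, a diacylglycerol kinase gene, had ratios of 2.35 and 1.47. In the same set were Gbe1, the glycogen branching enzyme gene (1.83 and 1.78), Sap30, a gene of the Sin3 histone deacetylase complex (2.22 and 1.65), Tec, a tyrosine kinase gene (1.93 and 1.74), Seh1l, a gene of both the nuclear pore and the GATOR2 complex upstream of the Rag GTPases (2.18 and 1.93), Arfgef2 (2.58 and 1.53), Gas2l3 (2.15 and 1.67), Mrpl45 (2.03 and 1.64) and Galnt11 (1.91 and 1.53). Ratios in 4T1M were below those in 4T1P for all 15 genes but Osbpl8, at 1.70 and 1.79.

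Genes of mature neutrophils were lower in the members than in the remaining neutrophils, the direction that the low-marker description of these cells gives. Of the 20 listed, all could be compared, 12 were at least 1.5-fold lower in both libraries, none was higher, and 19 had ratios below 0 in both, with medians of -0.79 and -0.82. The summed level was 103070 CPM in members against 174256 in 4T1P and 91465 against 155591 in 4T1M, of which S100a9, used by the rule as a floor together with S100a8, supplied 49.5% in the members. Ly6g, which encodes one of the proteins that carry the GR1 epitope of the sort, had 33.6 CPM in members and 182 in the remaining neutrophils of 4T1P, and 25.7 and 149 in 4T1M (log2 ratios -2.38, -3.46 to -1.58, and -2.50, -3.26 to -1.90). Cxcr2, the chemokine receptor gene, had 88.5 and 394 CPM, then 182 and 455, and Mmp9, the gelatinase gene, 58.0 and 407, then 96.6 and 343. For these 3 genes the members of either library lay below the remaining neutrophils of both. Itgam stood at 0.07 and 0.08 and Mxd1 at -0.12 and -0.07, both close to the remaining neutrophils, so the lower level did not extend to the whole list. S100a8 and S100a9, which the rule requires of every neutrophil, stood in the members at 32609 and 52005 CPM in 4T1P and 30401 and 44924 in 4T1M, against 230 and 311 CPM in macrophages of 4T1P.

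The 15 genes with the lowest mean ratio among those that reached the minimum were the following, apart from those already given. Apart from Lrg1, Hp, Pglyrp1 and Anxa1, the 15 reached 100 CPM only in the remaining neutrophils, the cells in which they were high. Ifitm6 had 61.0 CPM in members against 1046 in 4T1P and 36.1 against 654 in 4T1M, log2 ratios of -4.06 (-4.81 to -3.47) and -4.16 (-4.77 to -3.65). Lrg1, a secreted granule glycoprotein gene, had -2.77 and -2.92, Hp, the haptoglobin gene, -3.00 and -2.44, Pglyrp1, a bactericidal granule protein gene, -2.59 and -2.54, and Anxa1, the annexin A1 gene, -2.51 and -2.58. Cd177, a neutrophil surface glycoprotein gene, had 3.05 CPM against 106 in 4T1P, which was 1 UMI in the members, and 12.9 against 93.8 in 4T1M. Ngp was lowest of all (-5.82 and -2.66), but it was capped by the rule and had 2 UMIs in 4T1P members. The others among the 15 lowest were Steap4, Smpdl3a, Scp2, Prr13, Fgl2 and Ltb, with ratios between -2.69 and -1.39.

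Interferon response and inflammatory genes were compared in the same way. Of 21 interferon response genes compared, 3 were lower (Cxcl10, Ifit1 and Slfn5; 14.3%, near the 13.3% of all genes), none was higher and 16 had ratios below 0 in both libraries, with medians of -0.38 and -0.49. The count of lower genes changed with the choice of cells, to 10 of 21 with the top 10% of neutrophils (beside 14.01% of all genes), 8 of 21 with cells thinned before ranking (11.5%), 5 of 21 with split UMIs (11.9%), 1 of 21 with the top 30% (13.9%) and 1 of 22 without Ero1l in the score (12.4%). Cxcl10 had 61.0 CPM in members against 155 in 4T1P and 39.9 against 212 in 4T1M. Isg15, the most abundant of the list, had 903 against 1208, then 972 against 1565. NF-kB and inflammatory genes had medians of -0.07 and 0.00, with 2 of 24 lower, Il1b (-1.35 and -0.78) and Nfkb1 (-0.76 and -1.23), and none higher. Cxcl2, the most abundant, had 34788 CPM in members against 36626 in 4T1P and 46309 against 42018 in 4T1M. Of the genes of neutrophil ageing and egress, Cd24a was higher (0.68 and 0.74), though no gene of that list was with the top 30% of neutrophils or with S100a8 and S100a9 at no less than 3% of UMIs. Cxcr2 was lower, and Cxcr4 stood at -0.13 and 0.07 with intervals that included 0.

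Genes that respond to tissue dissociation were counted in the same way. Of 20 immediate early and dissociation genes compared, 6 were higher (Fos, Jun, Ier3, Klf2, Hsp90aa1 and Dnajb1) and 1, Nr4a1, was lower, beside 20.5% and 13.3% of all genes, with medians of 0.18 in 4T1P and 0.58 in 4T1M. The summed level was 19133 CPM against 16245 in 4T1P and 23692 against 15361 in 4T1M, with Ier3 the most abundant. Hspa1a had 513 CPM in members against 454 in 4T1P and 646 against 262 in 4T1M. None of 3 nuclear-retained RNAs passed 1.5-fold, and Malat1 had 43901 against 33616 CPM, then 41032 against 33513. Of the glucocorticoid response genes Errfi1 was higher (1.75 and 1.14), and Anxa1, Mt1 and Il1r2 were lower of 10 compared. None of that list was higher with thinned cells or with the minimum set over all ranked neutrophils together. The part of dissociation, nuclear RNA and depth in the other differences was not tested, apart from depth in the ranking: with cells thinned to 1000 UMIs before ranking, 259 of 1490 genes (17.4%) were higher and 172 (11.5%) lower. The same 14 hypoxia response genes were then higher and 12 mature neutrophil genes lower, 11 of them lower in the full data too, while FoxO targets went from 7 of 10 to 2 of 9 higher and interferon response genes went from 3 to 8 of 21 lower.

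Markers of other cell types were summed in the members and in the remaining neutrophils. Monocyte and macrophage genes summed to 1080 CPM against 1322 in 4T1P and 948 against 1657 in 4T1M, and to 33623 and 30102 CPM in the macrophages. Of 15, 3 could be compared, with Lyz2 the most abundant and lower (-0.94 and -1.60), Cd68 higher (0.65 and 0.69) and Apoe, capped by the rule, at -0.02 and -0.52. Genes of T or NK cells summed to 15.3 and 19.3 CPM against 46.3 and 40.7, with no UMI of Cd3e, Cd3g, Trac or Nkg7 in any member, and those of B cells to 6.10 and 87.5 CPM against 46.8 and 66.6, with no Cd79a or Ms4a1 and with Igkc the most abundant. Dendritic cell genes summed to 333 and 375 CPM against 398 and 454, led by Cd74, with Flt3, Xcr1 and Clec9a at 0. Genes of eosinophils, basophils or mast cells summed to 3.05 and 11.6 CPM against 26.8 and 25.02, led by Ccr3, and those of erythroid cells or platelets to 33.6 and 7.72 against 34.3 and 30.6, led by Pf4. Genes of fibroblasts or endothelial cells summed to 45.8 and 61.8 CPM against 32.0 and 29.8, and none of them reached the minimum. Pecam1 supplied 87.3% of their sum in the members (log2 ratios 0.79, -0.32 to 1.72, and 1.21, 0.65 to 1.73), with Col1a1, Dcn, Pdgfra, Cdh5, Kdr and Postn at 0, and their part in the other differences was not tested. The tumor or epithelial list gave 1767 and 1569 CPM against 2576 and 2045, of which 98.1% was Lcn2, a neutrophil granule gene. Of the list for immature neutrophils 4 could be compared, and Ngp and Ltb4r1 were lower. Ltb4r1 encodes a leukotriene B4 receptor, not a granule protein. The list had Elane, Mpo, Ctsg and Fcnb at 0 in the members and Camp, Ngp and Ltf capped by the rule.

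**Figure D4:**
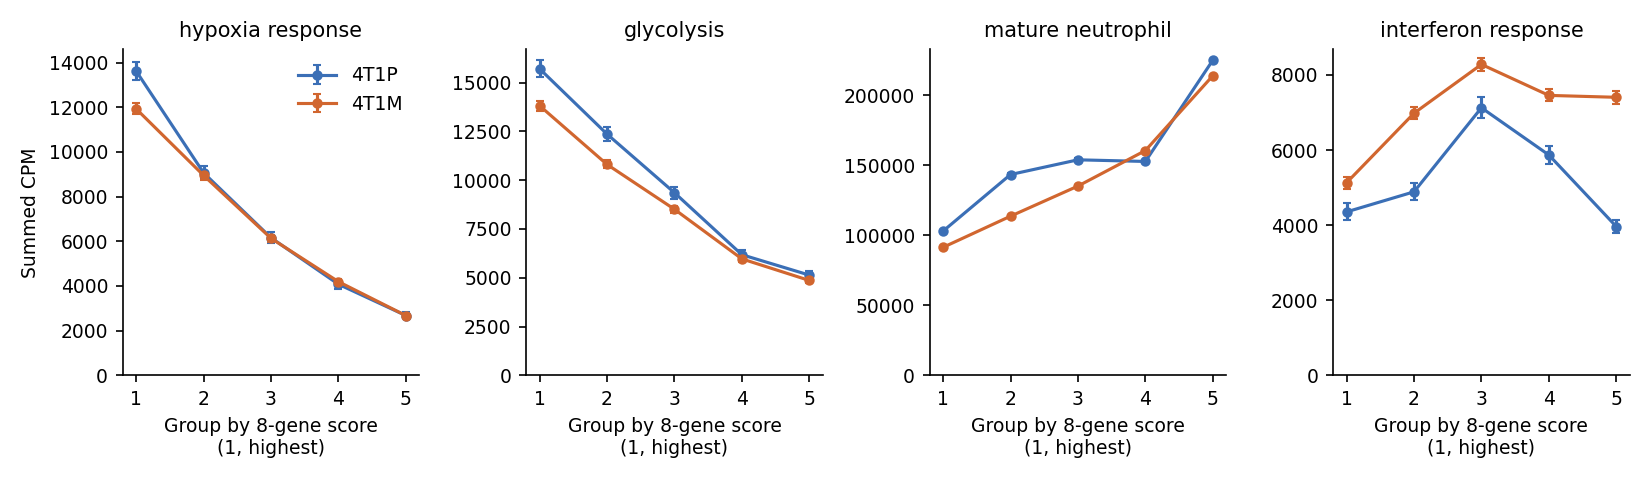
Summed CPM of 4 gene lists in 5 equal groups of neutrophils ordered by the 8-gene score (1, the members), for 4T1P (blue) and 4T1M (orange), with exact Poisson 95% intervals. Hypoxia response and glycolysis genes decline step by step from the first to the last group in both libraries, mature neutrophil genes are lowest in the first group, and interferon response genes are highest in group 3.

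The lists were also followed along the score, without its threshold, in 5 equal groups of neutrophils (each 20%, both libraries together) of which the first are the members. Hypoxia response genes summed to 13620, 9065, 6158, 4077 and 2678 CPM from the first to the last group in 4T1P, and to 11929, 8950, 6134, 4193 and 2676 CPM in 4T1M. Each step was downward and the libraries differed most in the first group. Mature neutrophil genes summed to 103070 CPM in the first and 225108 in the last group of 4T1P and to 91465 and 214040 in 4T1M, and the sum was higher at each step in 4T1M, whereas groups 3 and 4 of 4T1P lay at 153978 and 152803. Interferon response genes did not follow the score, with 4354 CPM in the first, 7127 in group 3 and 3963 in the last group of 4T1P, and 5130, 8282 and 7406 in 4T1M. In single cells, hypoxia response genes took a median of 1.31% of a member's UMIs and 0.43% of those of a remaining neutrophil in 4T1P, and 1.17% and 0.45% in 4T1M. The share exceeded the median of the remaining neutrophils in 112 of 113 members of 4T1P and in 263 of 276 of 4T1M. By definition, 49.9% and 50% of the remaining neutrophils exceed it as well. The cells overlapped, as the members' 10th percentile was 0.71% in 4T1P and 0.61% in 4T1M. The upper quartile of the remaining neutrophils was 0.75% and 0.74%. Mature neutrophil genes exceeded their own median in the remaining neutrophils in 18 (15.9%) of the 4T1P members and 66 (23.9%) of the 4T1M members.

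**Figure D5:**
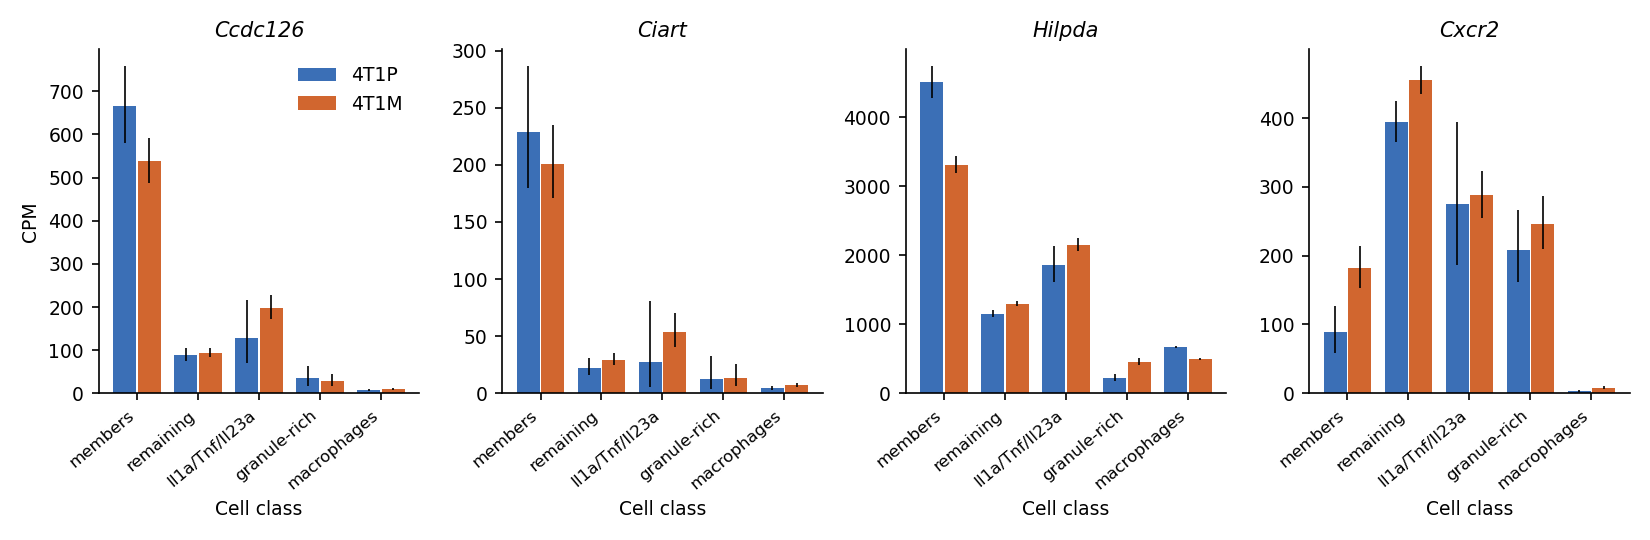
CPM of Ccdc126, Ciart, Hilpda and Cxcr2 in 5 cell classes of 4T1P (blue bars) and 4T1M (orange bars), with exact Poisson 95% intervals. Ccdc126 and Ciart, which chose the members, and Hilpda, which did not, are highest in the members, and Cxcr2 is highest in the remaining neutrophils.

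The members were set beside the classes most like them. Of the 389 members, 33 (8.48%) were also in the top 20% by Cxcr2, Hdc and G0s2, and 46 (11.8%) in the top 20% by Retnlg, Prok2 and Wfdc17, where 20% of the neutrophils were taken in each case. In the 288 neutrophils set aside for high Il1a, Tnf and Il23a, Hilpda had 1857 CPM in 4T1P and 2154 in 4T1M and Bnip3 772 and 718, above the remaining neutrophils (442 and 483 for Bnip3) and below the members (1443 and 1308). These inflammatory neutrophils had Ccdc126 at 129 and 198 CPM and Echdc3 at 55.1 and 59.0 CPM, so Echdc3 was not higher in the members than in them. NF-kB and inflammatory genes summed to 156000 and 167312 CPM in the inflammatory neutrophils and to 72877 and 95493 in the members. Mature neutrophil genes were lower still in the inflammatory neutrophils, at 81814 and 64641 CPM against 103070 and 91465 in the members, and so was Retnlg, at 846 and 724 CPM against 6197 and 3291. The 64 granule-rich neutrophils had the lowest hypoxia response sum, at 1295 and 2454 CPM, and macrophages had 3356 and 2964. For Vegfa, macrophages had 384 and 337 CPM and members 357 and 373, so this gene did not set the members apart from them.

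Between the conditions, 78 of 1338 genes (5.83%) were at least 1.5-fold higher and 60 (4.48%) at least 1.5-fold lower in 4T1M members than in 4T1P members. The call compares 2 libraries, not conditions. Of the 78 genes 47 reached 100 CPM only in 4T1M members, and of the 60 genes 31 only in 4T1P members. Among the same genes in the remaining neutrophils, 58 (4.33%) were higher and 7 (0.523%) were lower, of which 22 and 3 were also past 1.5-fold in the members. The ranking genes were not left out here, and all but Plcxd2, which was under 100 CPM in members, were among the 1338. In the members their log2 ratios lay between -0.31 and 0.42, short of 1.5-fold. In the remaining neutrophils Mreg, at 1.35, was among the 58. The member sums held 327758 UMIs in 4T1P and 776760 in 4T1M, far fewer than the 1750498 and 4156554 of the remaining neutrophils, so their ratios carried wider counting error, and the part of this in the larger number of genes was not tested.

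The highest ratios of 4T1M over 4T1P members were those of Klf3, a zinc finger repressor gene, at 27.5 CPM in 4T1P and 103 in 4T1M (log2 ratio 1.84, 0.91 to 3.09, and 0.40 in the remaining neutrophils), and of Slfn5, an interferon-inducible Schlafen gene, at 33.6 and 121 CPM (1.79, 0.95 to 2.90, and 1.34). Tnf, capped by the rule, followed at 107 and 371 CPM (1.78 and 1.33). Then came Clec4n, the Dectin-2 gene (1.73, 0.84 to 2.90, and 0.63), and Dapp1, an adaptor gene (1.595, 0.770 to 2.652, and 0.726). Klf3, Slfn5, Clec4n and Dapp1 rested on 9, 11, 10 and 12 UMIs in 4T1P members. Among members, these genes reached 100 CPM in 4T1M alone. All 5 ratios were above 0 in the remaining neutrophils too. The lowest were Rbm5, a splicing factor gene, at 110 and 42.5 CPM (-1.37, -2.10 to -0.65, and -0.15 in the remaining neutrophils), the noncoding AY036118 (-1.29 and -1.42), Errfi1 (-1.04 and -0.44), the mitochondrial mt-Nd3 (-0.96 and -0.29) and Retnlg, a secreted resistin-like protein gene of mature neutrophils, at 6197 and 3291 CPM (-0.91, -0.998 to -0.828, and -0.34). The ratio of Retnlg depended on the choice of cells and was 0.09 when Ero1l was left out of the score.

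By list, 6 of 22 NF-kB and inflammatory genes were higher in 4T1M members and none was lower, beside 5.83% and 4.48% of all genes compared, with a median of 0.41. The remaining neutrophils gave 6 of 22, beside 4.33%, and a median of 0.39. Icam1, an adhesion receptor gene, had 1.25 in the members and 1.13 in the remaining neutrophils, and Tnfaip3, the feedback inhibitor A20, 0.87 and 0.81. Of 14 interferon response genes compared 2 were higher in the members (median 0.19) and 4 in the remaining neutrophils (median 0.43). Of the 17 hypoxia response genes none was higher and 2 were lower in 4T1M members, Ankrd37 (-0.79) and Slc2a3 (-0.71), with a median of -0.05, against 0.03 in the remaining neutrophils, where none of the 17 passed 1.5-fold. Of 14 glycolysis genes Gapdh was lower (-0.64). The excess of hypoxia response and glycolysis genes in the members was therefore present in both libraries, with sums that were lower in 4T1M members than in 4T1P members by less than the gap to the remaining neutrophils.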

How the data were processed

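The deposited values are raw UMI counts per gene and barcode, which the authors made with Cell Ranger (4.0.0 in the submitters' processing notes) on GRCm38; the barcode and feature tables deposited with them hold names, not measurements. The tables list 2947 barcodes for 4T1P (21855657 UMIs) and 5004 for 4T1M (24303957). Cells with 500 to 5000 genes and at most 10% mitochondrial UMIs were retained (1726 and 3461).

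Counts were summed over members and over remaining neutrophils per library and given as CPM. Ratios had 0.5 UMIs added to each sum, except where UMIs were split. Intervals were exact (binomial for shares, Poisson for CPM, conditional for ratios). No p-value was computed, since there is 1 library per condition and members were ranked on measured values. Cells are not replicates. The members and the gene lists were chosen with earlier results of these data known. Genes named were the 9 markers, list genes, the 15 highest and 15 lowest mean ratios and the 5 highest and 5 lowest ratios between libraries; not every list gene is named, and some are not reported here. Gene roles are background knowledge. Ratio intervals were tested on simulated sums that held counting error alone, the error they assume. That simulation cannot show how they cover spread between cells or mice. The alternatives were other shares of cells, rankings, cell filters, scalings (edgeR 4.0.16 and DESeq2 1.42.0, factors only) and minimums, with 1 minimum added after seeing the data. Python 3.11.15, scipy 1.17.1, scanpy 1.11.5 (Scrublet, with an expected rate of 0.8% per 1000 barcodes) and R 4.3.3 were used. Promoter windows are from RefSeq (GRCm38.p6), gene starts from GENCODE. Of 1491 genes compared, 1180 had a window.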

Additional observations from a re-analysis of the deposited data

Results flagged for a closer look

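Of 1491 genes compared, 12 had counting intervals of the ratio of members over remaining neutrophils on opposite sides of 0 in 4T1P and 4T1M, and 6 of these were among the 201 list genes. The difference between the libraries was not tested for any of them. Fosb, an AP-1 subunit gene, had a log2 ratio of -0.85 in 4T1P and 0.54 in 4T1M, and Btg2, an antiproliferative early response gene, -0.41 and 0.21. Rsad2, an interferon-induced antiviral gene, had 0.44 and -0.41. The acute phase gene Saa3 had -0.40 and 0.46. The neutrophil chemokine genes Cxcl2 and Cxcl3 had -0.074 and 0.191 in 4T1P and 0.140 and -0.218 in 4T1M.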

How the results depend on the processing

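The shares of members, the counts of genes, the counts of each list for members over remaining neutrophils, the medians of 6 lists and 88 log2 ratios were recomputed under 14 alternatives and 1 chosen after seeing the data; other results were not. Under the 14, of the 28 share values 24, and of the 56 counts of genes 43, stayed within their interval or within 1.5 times. Of the list medians 55 of 168 moved, of the log2 ratios 105 of 1232, and 1 ratio reversed. The shares cannot show stability, because the cut sets the share of all ranked cells. The 4 that moved were those of the top 10% and top 30%, where the cut itself was changed. Scalings and CPM minimums cannot change which cells are members, and CPM minimums cannot change a log2 ratio. Those values stayed the same by construction. Leaving out Ero1l moved 10 of the 12 medians. With the top 10% of neutrophils the members were 11.4% of 4T1P and 9.43% of 4T1M neutrophils, and with the top 30% 29.6% and 30.2%. The number of genes lower in members in both libraries was 357 with a minimum of 50 CPM, and without a CPM minimum 753 were higher and 1120 lower. With 100 CPM over all ranked neutrophils together, added after seeing the data, 185 were higher in members and 34 lower in 4T1M than in 4T1P members. Between libraries, the top 10% gave 123 genes higher and 168 lower in 4T1M members, split UMIs 144 and 114, a minimum of 50 CPM 215 and 169, and no minimum 848 and 671, while 21 were lower with the top 30% and 39 with DESeq2 scaling. Retnlg reversed to 0.088 without Ero1l in the score; the cause was not tested. The count of hypoxia response genes higher in members ranged from 12 to 16, that of mature neutrophil genes lower from 9 to 15 and that of interferon response genes lower from 1 to 10. TMM and DESeq2 scaling shifted all log2 ratios by between -0.06 and 0.06. No paired analysis was possible because each condition has 1 library and no replicate numbers to pair.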
